A study of Mus musculus with 30 samples.

Results

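The genes described here are 39 collagen and other extracellular matrix genes among the 14475 genes of an RNA-seq table of mouse colon. They were taken by name from a fixed list, and the rule itself used no measured value. The list was, however, chosen with earlier results of these data known. All 39 names were found in the table. By textbook role they comprised 5 genes of fibrillar collagens, 15 genes of basement membranes and 19 other matrix genes.

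Fibroblasts and smooth muscle cells of the gut wall secrete the fibrillar collagens of types I, III and V, which assemble into fibrils that bear tension, together with fibronectin, elastic fibres and small proteoglycans that bind to the fibrils. Basement membranes are thin sheets of laminins, collagen IV, nidogen and the proteoglycan perlecan on which epithelium, muscle and vessels rest. In the gut the sheet under the epithelium is built by epithelial and mesenchymal cells together, and the laminin that holds the chains encoded by Lama3 and Lamb3 anchors the epithelial cells to it.

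Pieces of ascending and of descending colon from female mice gave 30 libraries of total RNA depleted of ribosomal RNA: 8 from ascending KO colon, 7 from ascending control colon, 8 from descending KO colon and 7 from descending control colon. The KO mice were labelled TM-DKOAsc and, by the genotype that the protocol gives for TM-DKO mice, carried floxed alleles of C1galt1 (C1galt1f/f), VillinCre-ERT2, a tamoxifen-activated Cre recombinase whose promoter is used by epithelial cells of the gut, and C3GnT-/-, a null allele of the gene now named B3gnt6. C1galt1 and B3gnt6 encode the enzymes that make the core 1 and the core 3 structures of mucin-type O-glycans, the sugar chains of mucus, and the series compared the mutants with littermate controls to describe the mucus of the ascending colon. The controls were wild-type littermates, and all mice shared the same microbiota. Per the labels' protocols, 0.5 mg of tamoxifen (about 20 mg/kg) was injected daily for 5 days into mutants or wild-type littermates, and mice were analysed 5 or 10 days later, without a statement of which time applied to which library. The mice came from 3 cages. Cage A was labelled 'C57BL/6 Background' and 3.4 months of age, cage B 'Mixed BL/6-129SvJ' and 2.6 months, and cage C 'Mixed BL/6-129SvJ' and 3.2 months, so that cage, strain label and age cannot be told apart. Cages A, B and C gave 3, 2 and 3 KO libraries and 2, 3 and 2 control libraries in each region. Libraries are named below by cage letter and number.

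The values are FPKM, read fragments divided by gene length and by library depth, and because they are per length, levels can be set side by side between genes. Groups are given by their lowest, median and highest library. C1galt1 was at 18.3, 28.8 and 34.3 FPKM in ascending KO libraries, against 21.5, 36.3 and 45.7 FPKM in ascending controls, and at 14.6, 30.6 and 36.7 FPKM in descending KO libraries, against 28.0, 33.3 and 38.7 FPKM in descending controls. B3gnt6 reached at most 0.53 FPKM in ascending KO libraries, against 0.11, 0.45 and 19.5 FPKM in ascending controls, and at most 0.06 FPKM in descending KO libraries, against 0, 0.06 and 0.43 FPKM in descending controls. The KO and control ranges of C1galt1 and of B3gnt6 overlapped in both regions, and values per gene do not show whether the reads came from the deleted part, so C1galt1 and B3gnt6 give little check of the genotype labels. Depth, estimated from the spacing of low FPKM values, ran from 1.46 to 7.76 M reads in ascending KO libraries, from 3.37 to 6.93 in ascending controls, from 6.56 to 8.99 in descending KO libraries and from 3.18 to 8.99 in descending controls, and the ascending KO libraries of cage A were the shallowest of all, at 1.46 to 1.55. All 15 epithelial markers were present, with a summed level of at least 4823 FPKM in each library. The labels do not say that each library of a group came from a separate animal, so p-values measure only the spread between these libraries, which may in part be technical.

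The matrix genes differed widely in level. Lamb3 and Lama3, the beta and alpha chains of the epithelial laminin, were the highest of the 39, with means of 44.7 and 29.0 FPKM over the 30 libraries. They were followed by Dcn at 13.8 FPKM (decorin, a small proteoglycan that binds collagen fibrils), Fn1 at 11.9 FPKM (fibronectin, a glycoprotein that links cells to matrix) and Igfbp7 at 11.9 FPKM (a secreted protein of vessels and stroma). The highest fibrillar collagen gene was Col3a1 at 11.2 FPKM, and the lowest members were Col12a1 at 0.72 FPKM, Col15a1 at 0.66 FPKM and Col4a6 at 0.46 FPKM. Few values were at 0: Col5a2, Lum and Eln were listed at 0 in 1 ascending KO library each, and Lum in 1 descending control.

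Summed over the 5 fibrillar genes, the lowest, median and highest library had 4.73, 13.1 and 25.8 FPKM in ascending KO colon, against 16.2, 26.7 and 52.7 FPKM in ascending control colon. In the descending colon the same sum was 10.8, 26.2 and 54.7 FPKM in KO libraries, against 15.0, 37.4 and 72.6 FPKM in controls. The sum over the 19 other matrix genes was 28.4, 45.1 and 102 FPKM in ascending KO libraries, against 66.8, 94.4 and 169 FPKM in ascending controls. Both sums were thus lowest in ascending KO colon, while ranges of the 4 groups overlapped. The basement membrane sum, of which Lamb3 and Lama3 made up the larger share, differed little: its medians were 107 FPKM in ascending KO, 110 FPKM in ascending control, 114 FPKM in descending KO and 120 FPKM in descending control libraries.

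Single libraries were extreme for many members at once. Within the ascending colon, KO A3 was the lowest of the 15 libraries for 15 of the 39 members and KO C1 for 12, and control A2 was the highest for 17 and control B1 for 13. Within the descending colon, KO A2 was the lowest for 25 members, and control A1 was the highest for 19 and control A2 for 9. Many members were thus extreme in the same library. The shares of all genes that were extreme in these libraries were not counted, so this is not read as particular to the members. Ascending KO A3 was also the shallowest library, at an estimated 1.46 M reads. Some of these libraries also stood apart in markers of gut wall cells. The summed smooth muscle markers (16 genes) were at 506 FPKM in ascending control B1, the top of a range of 46.7 to 506 FPKM in its group. Fibroblast markers that are not matrix genes (21 genes) summed to 1019 FPKM in descending control A1, the top of 72.5 to 1019 FPKM. Among these markers the genes C3 and Cd81 had the highest mean log2(FPKM + 1), at 7.49 and 4.50 in ascending libraries. In descending libraries they were at 5.77 and 5.89, and Vim was next in both regions, at 3.47 and 3.145. The fibroblast sums here and below therefore follow the genes C3 and Cd81 above all. Ascending KO A3 was lowest of its group in fibroblast markers (79.4 FPKM), and descending KO A2 in smooth muscle markers (60.7 FPKM). This was not so for each library and marker. Smooth muscle markers were at 127 FPKM in ascending control A2, below controls B1 and C1. They were at 53.4 FPKM in ascending KO A3, near its group median of 55.15 FPKM, and at 292 FPKM in descending control A1, below control B3. Fewer cells of a type and less RNA per cell cannot be told apart in such pieces of tissue.

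**Figure D1:**
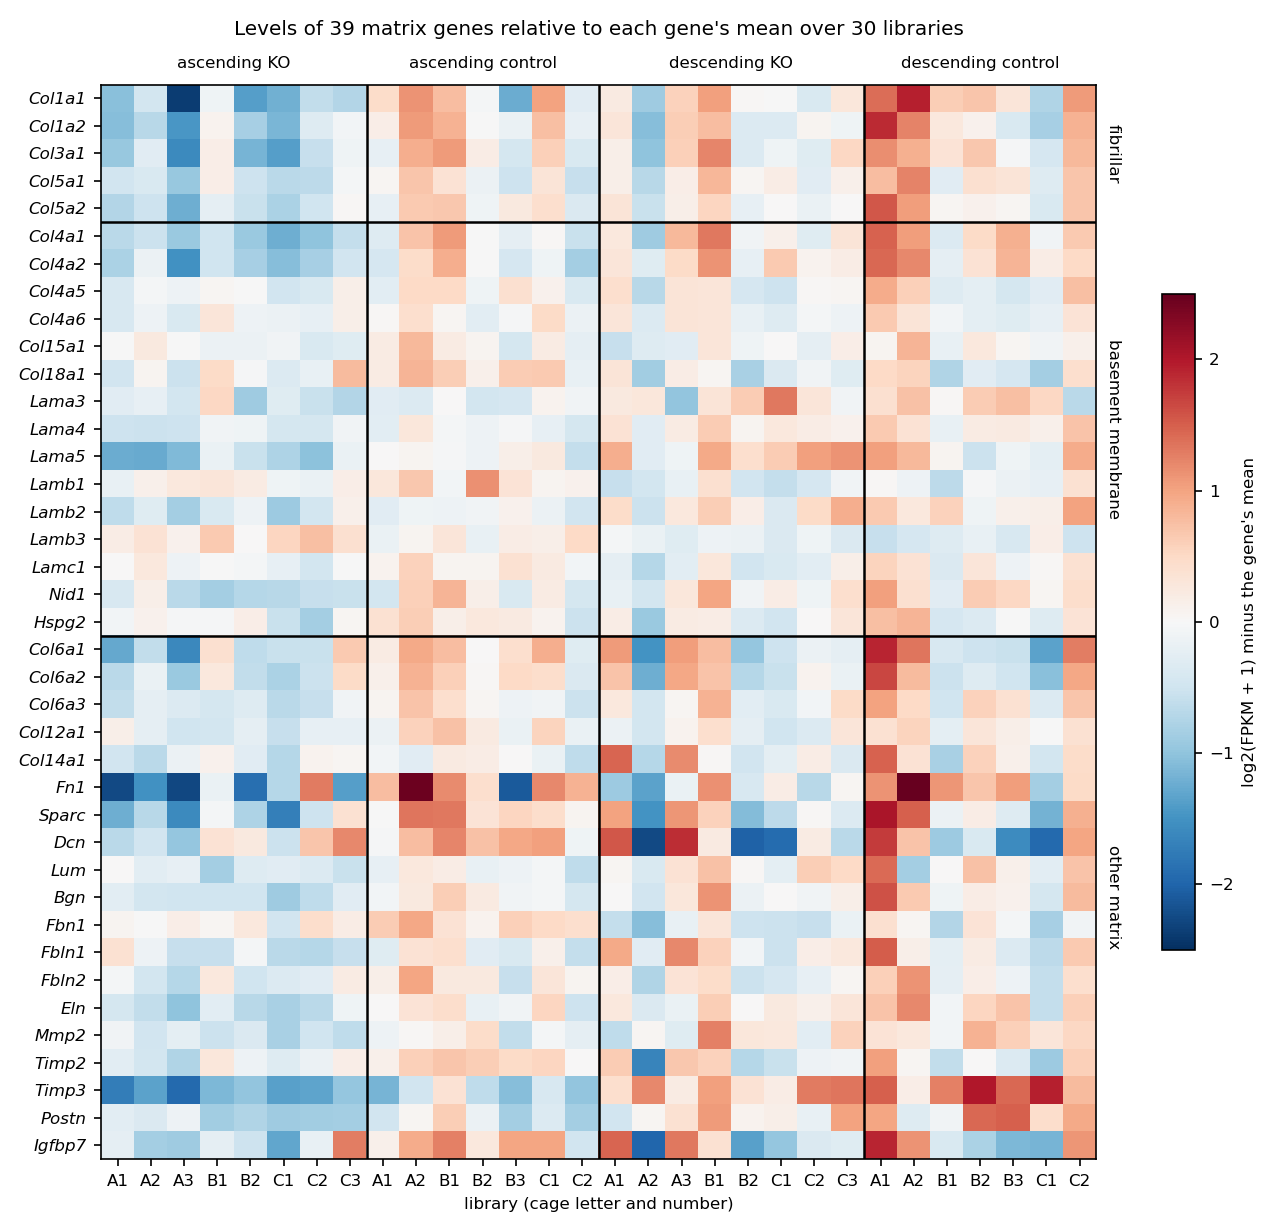
Level of each of the 39 matrix genes (rows, by class) in each of the 30 libraries (columns, by region and genotype, with cage letter and number), as log2(FPKM + 1) minus the mean of that gene over all libraries; red is above and blue below that mean. Ascending KO A3 and descending KO A2 are low for many genes, and descending control A1 and ascending control A2 are high for many.

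The promoter sequence of a few members is shown as a description, and no test used it. These members are Col4a1 and Col4a2, Col1a2 as a fibrillar collagen gene, and Timp3 and Lamb3, which differed between the regions in opposite directions. Col4a1 and Col4a2 lie head to head, and their differences had the same sign in each genotype and region comparison. RefSeq windows of 300 nt (250 before and 50 after the annotated start; build GRCm38.p6, 5′ to 3′ on the strand of the gene) were found for 27 of the 39 members. Capitals mark the motifs CCAAT (bound by the factor NF-Y) and GGGCGG (a GC box) on either strand, so that ATTGG and CCGCCC are marked too. No 2 marked motifs overlapped.

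Col4a1, chr8:11312777-11313076, minus strand: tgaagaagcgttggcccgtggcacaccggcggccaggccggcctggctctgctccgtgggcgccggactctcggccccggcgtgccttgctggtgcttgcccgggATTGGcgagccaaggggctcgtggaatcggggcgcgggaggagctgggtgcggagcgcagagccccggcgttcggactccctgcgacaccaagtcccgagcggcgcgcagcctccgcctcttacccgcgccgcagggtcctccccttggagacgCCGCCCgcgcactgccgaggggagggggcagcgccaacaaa

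Col4a2, chr8:11312555-11312854, plus strand: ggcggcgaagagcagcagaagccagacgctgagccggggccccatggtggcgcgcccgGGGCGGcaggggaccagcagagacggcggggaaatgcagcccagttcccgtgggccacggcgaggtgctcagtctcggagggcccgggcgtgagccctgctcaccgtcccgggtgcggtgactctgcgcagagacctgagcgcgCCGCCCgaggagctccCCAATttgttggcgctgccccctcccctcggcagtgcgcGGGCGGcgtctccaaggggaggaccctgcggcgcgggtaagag

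Col1a2, chr6:4505368-4505667, plus strand: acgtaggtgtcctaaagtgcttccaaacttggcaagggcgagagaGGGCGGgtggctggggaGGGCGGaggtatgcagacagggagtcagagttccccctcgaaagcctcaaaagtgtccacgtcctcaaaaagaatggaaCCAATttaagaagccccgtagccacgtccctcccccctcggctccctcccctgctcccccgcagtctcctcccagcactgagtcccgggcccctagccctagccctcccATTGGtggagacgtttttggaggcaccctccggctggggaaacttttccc

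Timp3, chr10:86300162-86300461, plus strand: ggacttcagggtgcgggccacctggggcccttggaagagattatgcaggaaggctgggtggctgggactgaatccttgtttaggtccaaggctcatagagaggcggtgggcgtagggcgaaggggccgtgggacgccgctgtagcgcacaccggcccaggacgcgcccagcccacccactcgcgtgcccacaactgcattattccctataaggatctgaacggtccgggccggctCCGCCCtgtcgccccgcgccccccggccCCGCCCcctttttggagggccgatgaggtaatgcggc

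Lamb3, chr1:193301744-193302043, plus strand: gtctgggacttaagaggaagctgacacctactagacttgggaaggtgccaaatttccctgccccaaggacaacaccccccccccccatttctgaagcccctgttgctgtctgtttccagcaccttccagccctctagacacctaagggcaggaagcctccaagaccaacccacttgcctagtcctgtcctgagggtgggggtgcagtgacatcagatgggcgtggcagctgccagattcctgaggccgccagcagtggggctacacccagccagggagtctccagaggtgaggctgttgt

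The Col4a1 window held 1 CCAAT and 1 GGGCGG match, the Col4a2 window 1 CCAAT and 3 GGGCGG matches, the Col1a2 window 2 of each, the Timp3 window 2 GGGCGG matches and the Lamb3 window none of either; for Lamb3 2 starts were listed and the first is shown. The starts of Col4a1 and Col4a2 lay 21 nt apart on opposite strands, and their windows shared 78 nt. Over both strands, GGGCGG was found in 62.5% of the 32 member windows and in 35.7% of all 32851 windows of the same length, and CCAAT in 28.1 and 37.4%. TATAAA was found in 6.25% of member windows and 13.6% of all windows, and TGANTCA (the AP-1 motif) in 3.12 and 7.81%. These are matches of letters and carry no test.

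In the ascending colon, nearly all matrix genes lay lower in KO than in control libraries, but none passed the test across all genes. On the log2(FPKM + 1) scale the fibrillar collagen genes had the lowest median of the 3 classes. Differences are of log2(FPKM + 1), KO minus control, with cage as a covariate, and were tested with limma on the 12178 genes that averaged at least 0.5 FPKM, with Benjamini-Hochberg adjustment over all of them and a threshold of 0.05. Of the 39 members, 38 were kept (Col4a6 was below the filter) and 0 were called, against 0 of all genes (0%). At limma's unadjusted p under 0.05 there were 27 of 38 members, against 1396 of 12178 genes (11.5%), and of these 1 member was higher in KO, against 3.46% of genes, and 26 were lower, against 8.01%. Below 0 were 37 of 38 members, against 61.3% of all genes, and Lamb3 was the member above 0. These 27 comprised all 5 fibrillar genes, 7 of 14 basement membrane genes and 15 of 19 other matrix genes. The median log2 difference was -0.49 over the members tested, -0.95 over the 5 fibrillar genes, -0.26 over 14 basement membrane genes and -0.53 over the 19 other matrix genes, beside -0.05 over all genes. This scale understates the fold of low genes, such as Nid1 (median 0.45 FPKM in KO, against 1.47 FPKM in controls) and Eln (0.28 against 1.01 FPKM). The order of the classes may therefore depend in part on level, which was not tested.

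Among the fibrillar collagens, Col1a1 (ENSMUSG00000001506.10; GRCm38, chr11:94936224-94953042), which encodes the alpha 1 chain of collagen I, had 0.52, 3.28 and 6.33 FPKM in ascending KO libraries, against 2.34, 9.82 and 16.2 FPKM in ascending controls. All 8 KO libraries lay below the control median and 2 below every control. The log2 difference was -1.29 ± 0.37 (SE) (adjusted p = 0.27 in limma). Its partner Col1a2, the alpha 2 chain of collagen I, had 1.1, 2.41 and 5.09 FPKM in KO libraries, against 3.99, 5.48 and 10.95 FPKM in controls, and 6 of 8 KO libraries lay below every control (-1.02 ± 0.26). Col3a1, the chain of collagen III, had 2.56, 5.38 and 11.1 FPKM in KO libraries, against 6.92, 11.1 and 21.3 FPKM in controls (-0.95 ± 0.31). Collagen V starts and thins the fibrils of collagen I, and its alpha 2 gene Col5a2 had 0, 0.61 and 1.38 FPKM in KO libraries, against 0.81, 1.75 and 2.72 FPKM in controls (-0.72 ± 0.20), with 6 of 8 KO libraries below every control. The alpha 1 gene Col5a1 spanned 0.55 to 2.34 FPKM in KO libraries, against 1.01 to 3.84 FPKM in controls.

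In the basement membrane group, Col4a1 and Col4a2, the chains of the collagen IV found in nearly all basement membranes, lay lower in KO libraries. Col4a1 had 0.61, 1.18 and 1.68 FPKM in ascending KO libraries, against 1.57, 2.73 and 6.94 FPKM in ascending controls, with 6 of 8 KO libraries below every control (-0.86 ± 0.21, adjusted p = 0.21 in limma). Col4a2 had 0.21, 0.98 and 2.16 FPKM in KO libraries, against 0.94, 2.22 and 5.51 FPKM in controls (-0.66 ± 0.24). The 2 genes overlap by 22 bp in the annotation and are read from opposite strands. Lama5, the alpha chain of the laminins of mature epithelial and vessel basement membranes, had 1.1, 1.70 and 3.47 FPKM in KO libraries, against 2.34, 4.08 and 4.93 FPKM in controls (-0.69 ± 0.18, adjusted p = 0.23 in limma). Nid1, the nidogen that links laminin to collagen IV, had 0.24, 0.45 and 1.45 FPKM in KO libraries, against 0.61, 1.47 and 3.01 FPKM in controls (-0.61 ± 0.21). All 8 KO libraries lay below the control median for each of Col4a1, Col4a2, Lama5 and Nid1.

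The epithelial laminin genes did not share that pattern. Lamb3 had 43.6, 56.8 and 73.3 FPKM in ascending KO libraries, against 38.2, 47.9 and 61.4 FPKM in ascending controls (0.25 ± 0.12, adjusted p = 0.42 in limma). Lama3 had 14.0, 20.5 and 38.97 FPKM in KO libraries, against 19.2, 21.9 and 28.6 FPKM in controls (-0.14 ± 0.18, adjusted p = 0.78 in limma), and its sign changed when cage C was left out (0.05). Set against each other within a library, the median log2(FPKM + 1) of Lamb3 minus that of Lama3 was 1.38 in ascending KO libraries and 0.97 in ascending controls. The minor collagen IV chains Col4a5 and Col4a6, on the X chromosome 1308 bp apart, were low in both groups, with medians of 0.86 and 0.30 FPKM in KO libraries, against 1.13 and 0.45 FPKM in controls. Across the libraries Col4a5 spanned 0.42 to 1.17 FPKM in KO, against 0.51 to 1.80 FPKM in controls, and Col4a6 0.08 to 0.77 FPKM in KO, against 0.18 to 0.99 FPKM in controls. Lamc1, Lamb2, Lama4, Lamb1, Hspg2 (perlecan), Col15a1 and Col18a1 (collagens of the outer face of basement membranes) lay between -0.40 and -0.19.

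Of the other matrix genes, Sparc and Timp2 had the smallest p-values. Sparc (osteonectin, a collagen-binding glycoprotein; chr11:55394500-55423183) had 1.99, 4.88 and 11.7 FPKM in ascending KO libraries, against 8.68, 12.3 and 23.7 FPKM in ascending controls, and 7 of 8 KO libraries lay below every control (-1.28 ± 0.31, adjusted p = 0.21 in limma). Timp2, an inhibitor of matrix metalloproteinases, had 3.34, 5.41 and 7.90 FPKM in KO libraries, against 6.38, 9.71 and 10.9 FPKM in controls (-0.59 ± 0.13, adjusted p = 0.21 in limma). The proteoglycan gene Bgn (biglycan) had 0.30, 0.71 and 0.99 FPKM in KO libraries, against 0.78, 1.33 and 2.66 FPKM in controls (-0.53 ± 0.14). For both Timp2 and Bgn 6 of 8 KO libraries lay below every control.

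Fn1 (chr1:71585520-71653200) had the difference farthest from 0 and the widest spread: 0.81, 2.23 and 20.4 FPKM in ascending KO libraries, against 1.05, 15.1 and 46.9 FPKM in ascending controls (-1.92 ± 0.58, adjusted p = 0.28 in limma). The highest KO library was C2 and the lowest control was B3, so the ranges overlapped over most of the KO range, although 7 of 8 KO libraries lay below the control median. Without cage A the difference was -1.07. Eln, the elastin of elastic fibres, had 0, 0.28 and 0.86 FPKM in KO libraries, against 0.40, 1.01 and 1.89 FPKM in controls (-0.65 ± 0.18). Collagen VI, a beaded filament around cells, showed lower medians in KO libraries for all of its chains measured here: 5.47 against 12.0 FPKM for Col6a1 (-0.91 ± 0.30), 2.25 against 5.55 FPKM for Col6a2 (-0.65 ± 0.23) and 0.93 against 1.61 FPKM for Col6a3 (-0.47 ± 0.16). The lowest and highest libraries of Col6a1 were 2.16 and 14.3 FPKM in KO, against 6.84 and 17.7 FPKM in controls, so the groups overlapped; those of Col6a2 were 1.54 and 5.72 FPKM in KO, against 2.80 and 7.90 FPKM in controls, and those of Col6a3 0.59 and 1.39 FPKM in KO, against 0.73 and 3.16 FPKM in controls. Dcn had 4.70, 9.65 and 24.6 FPKM in KO libraries, against 9.46, 18.1 and 25.1 FPKM in controls (-0.59 ± 0.26), and Col12a1, a collagen on the surface of fibrils, 0.11, 0.43 and 0.85 FPKM in KO libraries, against 0.48, 0.93 and 1.76 FPKM in controls (-0.51 ± 0.17). The remaining members of this class lay between -0.90 and -0.09.

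No member had KO and control ranges that did not overlap in the ascending colon, against 12 of all genes (0.0985%; 0.0821% wholly lower and 0.0164% wholly higher). The count of calls depended on how libraries were weighted. With array quality weights, which give less weight to libraries that deviate from their group, 12 members passed, all lower in KO (Bgn, Col1a1, Col1a2, Col3a1, Col4a1, Col5a2, Col6a1, Eln, Fn1, Lama5, Sparc and Timp2), among 746 genes in all. Without cage B 4 passed (Col1a1, Col1a2, Fn1 and Lama5), among 652 genes, and without ascending KO B1 3 passed (Col1a2, Lama5 and Timp2), among 170 genes.

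**Figure D2:**
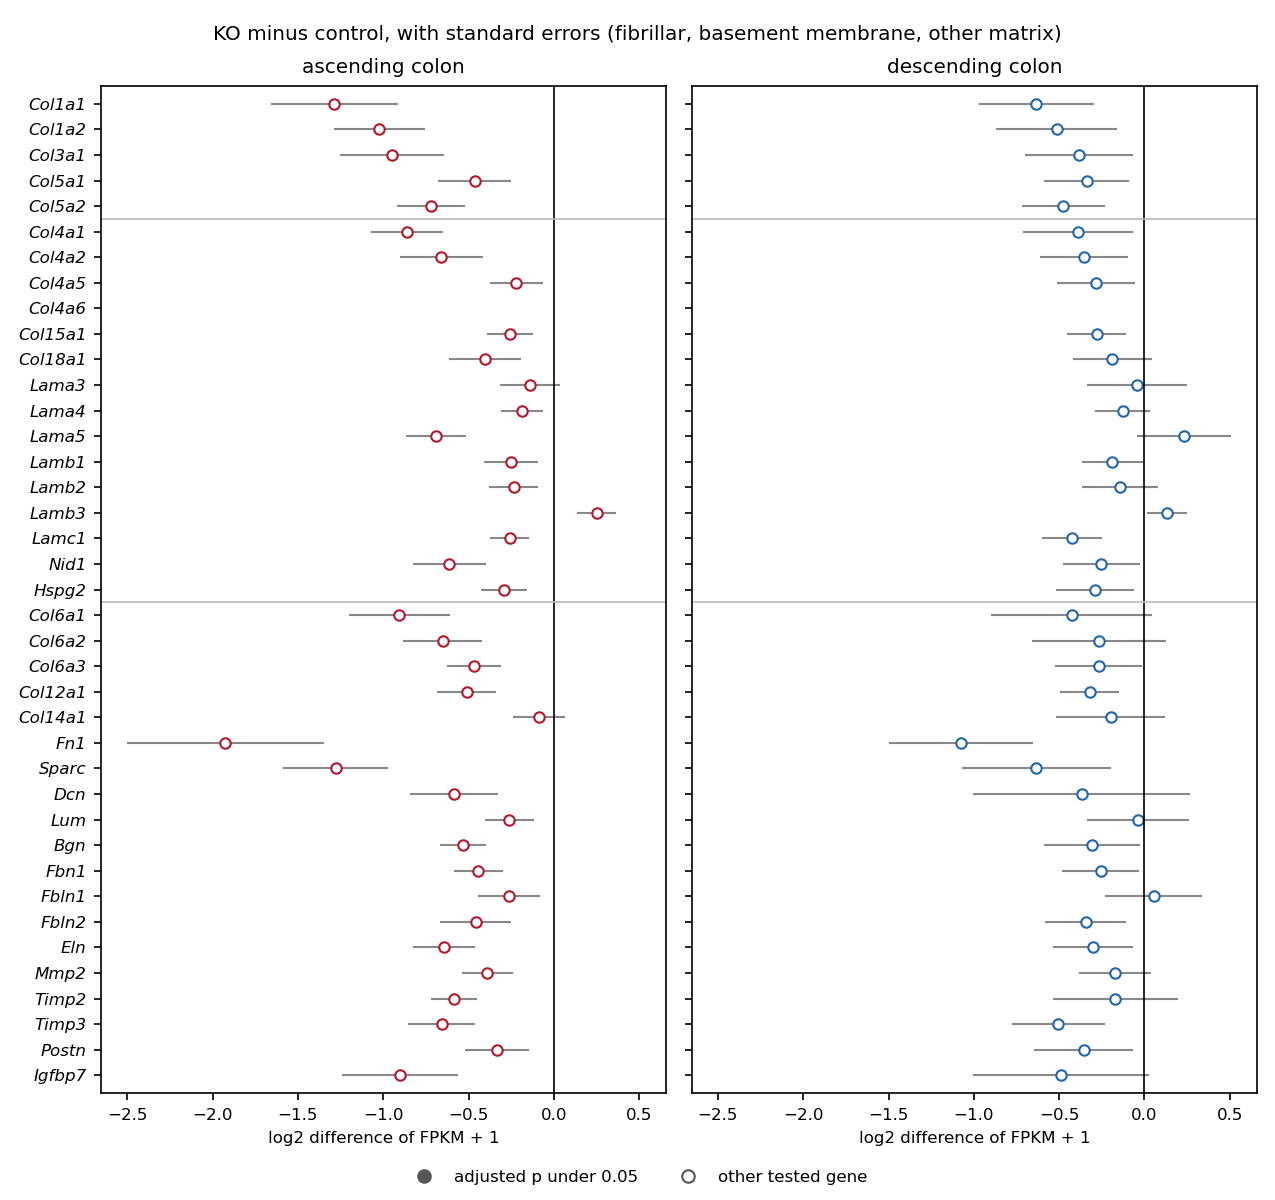
KO minus control difference of log2(FPKM + 1) for each matrix gene (points, with bars of 1 standard error from the limma fit) in the ascending colon at left and the descending colon at right; grey lines divide fibrillar, basement membrane and other matrix genes, and open points did not pass an adjusted p of 0.05. All points are open, and Lamb3 is the ascending gene right of 0; Col4a6 was not tested.

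Markers of other cells of the gut wall moved with the matrix genes in the ascending colon. All 14 smooth muscle markers tested (of 16) lay below 0, with a median log2 difference of -0.62, and their sum was 38.2 to 90.8 FPKM in KO libraries, against 46.7 to 506 FPKM in controls. The median was -0.37 for 14 fibroblast markers outside the matrix (13 below 0), whose sum over 21 genes was 79.4 to 536 FPKM in KO libraries, against 145 to 593 FPKM in controls. It was -0.62 for 8 macrophage markers, -0.60 for 6 neuron and glia markers, -0.58 for 9 adipocyte and mesothelium markers, -0.34 for 8 lymphocyte markers and -0.24 for 5 endothelial markers. The 15 epithelial markers had a median of 0.15 and a sum of 7346 to 9375 FPKM in KO libraries, against 5874 to 9402 FPKM in controls. No marker was at 0 in every library of a group, 0 markers passed the test, and the part of these cells in the matrix differences was not tested. Depth differed as well: the 3 ascending KO libraries of cage A were the shallowest, and without cage A the median of the members was -0.43.

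In the descending colon the matrix genes also lay lower in KO libraries on average, by smaller amounts and not in every cage. Of 38 members tested 0 were called, against 0 of 12219 genes (0%), and 2 were at limma's unadjusted p under 0.05, against 267 of all genes (2.19%). Below 0 were 35 of 38 members, against 62.2% of all genes. The median was -0.29 over the members, -0.48 over the fibrillar, -0.22 over the basement membrane and -0.31 over the other matrix genes, beside -0.04 over all genes. Single libraries moved these class medians: without control A1 they were -0.28, -0.14 and -0.18 for fibrillar, basement membrane and other matrix genes, and without KO A2 -0.30, -0.14 and -0.18. The basement membrane median was -0.37 without KO B1 and -0.15 without KO B2, and the other matrix median -0.47 without KO B1 and -0.18 without control C2.

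The members at an unadjusted p under 0.05 were Fn1 and Lamc1. Fn1 had 2.48, 6.24 and 18.2 FPKM in descending KO libraries, against 3.88, 17.2 and 53.1 FPKM in descending controls (-1.08 ± 0.42, adjusted p = 1.00 in limma). Lamc1, the gamma chain shared by most laminins, had 1.54, 2.46 and 4.07 FPKM in KO libraries, against 2.25, 4.13 and 5.15 FPKM in controls (-0.43 ± 0.17), and all 8 KO libraries lay below the control median. Neither gene's ranges were separate. Col1a1 had 3.26, 7.59 and 15.1 FPKM in KO libraries, against 3.67, 11.7 and 29.4 FPKM in controls (-0.63 ± 0.34), and Col5a2 0.58, 1.36 and 2.38 FPKM in KO libraries, against 0.79, 1.51 and 5.83 FPKM in controls (-0.48 ± 0.24). Col1a2 had 1.75, 4.66 and 8.76 FPKM in KO libraries, against 2.22, 5.92 and 20.1 FPKM in controls (-0.51 ± 0.35). For these fibrillar genes the control range reached higher and took in nearly all KO libraries. Col4a2 had 1.82, 3.10 and 6.55 FPKM in KO libraries, against 1.96, 3.90 and 8.41 FPKM in controls (-0.36 ± 0.26), and Col15a1 0.09, 0.44 and 0.99 FPKM in KO libraries, against 0.42, 0.69 and 1.92 FPKM in controls (-0.28 ± 0.17). Timp3, an inhibitor of metalloproteinases that stays bound to matrix, had 5.52, 8.70 and 13.4 FPKM in KO libraries, against 5.43, 14.5 and 21.9 FPKM in controls (-0.51 ± 0.27), with all 8 KO libraries below the control median. Col12a1 had 0.17, 0.47 and 1.23 FPKM in KO libraries, against 0.40, 1.04 and 1.46 FPKM in controls (-0.32 ± 0.17), and 3 KO libraries lay below every control.

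Sparc had 2.44, 7.80 and 19.9 FPKM in descending KO libraries, against 3.31, 10.2 and 39.3 FPKM in descending controls, a range that spans that of the KO group almost wholly. Lama5, with 3.11, 7.61 and 9.93 FPKM in KO libraries, against 2.47, 4.30 and 9.29 FPKM in controls, was among the 3 members above 0, with Lamb3 and Fbln1 (fibulin 1, a glycoprotein of elastic fibres and basement membranes). No member had separate KO and control ranges in the descending colon, and neither did any other gene (0.0% of 12219). All 14 smooth muscle markers tested lay below 0 here too, with a median of -0.50 and a sum of 60.7 to 341 FPKM in KO libraries, against 51.3 to 529 FPKM in controls, and their part was not tested. The fibroblast markers outside the matrix had a median of -0.21 (13 of 15 below 0) and a sum of 63.3 to 870 FPKM in KO libraries, against 72.5 to 1019 FPKM in controls.

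**Figure D3:**
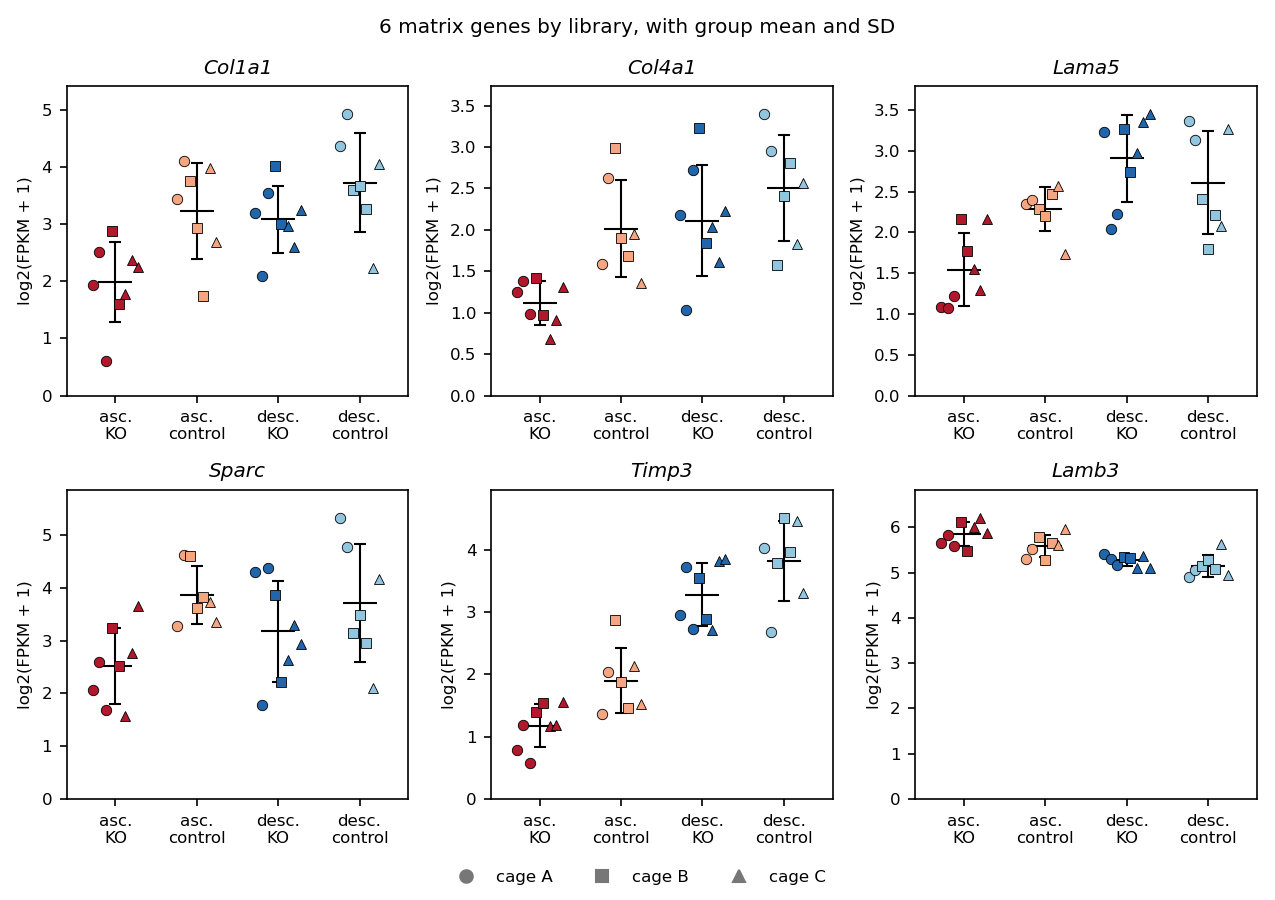
log2(FPKM + 1) of 6 matrix genes in each library (circles cage A, squares cage B, triangles cage C), with the mean (long bar) and SD (whiskers) of each group; KO libraries are dark and controls light, ascending (asc.) at left and descending (desc.) at right. Col1a1, Col4a1, Lama5 and Sparc are lowest in ascending KO colon, Timp3 is lower in the ascending than in the descending colon, and Lamb3 is higher there.

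The cages gave different pictures in the descending colon. The median KO minus control difference over the 39 members, each taken as a difference of group means within a cage, was -0.84 in cage A, 0.15 in cage B and -0.16 in cage C, with 38, 8 and 33 members below 0. Without cage A the fitted median was 0.01. Leaving out descending KO A2 gave -0.17, descending control A1 -0.19 and descending KO B1 -0.46. In the ascending colon the same median was -0.79 in cage A, -0.52 in cage B and -0.34 in cage C, and 34 of 39 members lay below 0 in all 3 cages, against 6 in the descending colon. Shares of all genes were not counted by cage, so these counts are not read as particular to the members. In the fits over all cages 61.3% of all genes lay below 0 in the ascending and 62.2% in the descending colon.

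By gene, Col1a1 differed by -2.09, -0.57 and -1.20 in cages A, B and C of the ascending colon and by -1.70, -0.0003 and -0.20 in those of the descending colon. Sparc gave -1.83, -1.14 and -0.87 in the ascending colon and -1.57, -0.15 and -0.18 in the descending colon. Lama5 gave -1.24, -0.35 and -0.48 in the ascending colon but -0.75, 0.87 and 0.58 in the descending colon. Lamb3 was above 0 in all 3 ascending cages (0.27, 0.23 and 0.25), and Timp3 lay below 0 in all 6 (-0.84, -0.61 and -0.52 in the ascending and -0.22, -0.87 and -0.42 in the descending colon). A moderated F test (limma) of whether the genotype difference depended on cage called 0 of 38 members in the ascending colon, against 0 of 12178 genes (0%), and 0 of 38 in the descending colon, against 1 of 12219 genes (0.00818%). At an unadjusted p under 0.05 in limma it gave 0 members in the ascending colon, against 10.4% of genes, and 5 in the descending colon, against 4.42%. The test of the cages themselves called 0 members, against 161 genes (1.32%) in the ascending and 73 genes (0.597%) in the descending colon, and at an unadjusted p under 0.05 it gave 3 members, against 15.6% of genes, in the ascending and 0 members, against 13.2%, in the descending colon.

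**Figure D4:**
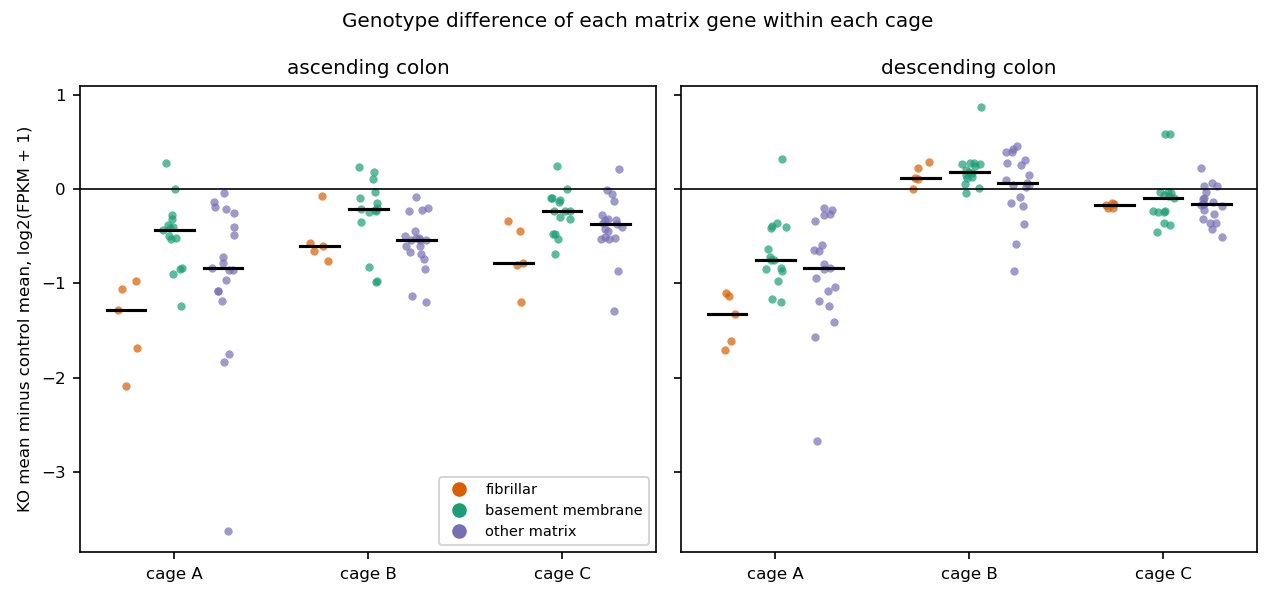
KO mean minus control mean of log2(FPKM + 1) within each cage for each of the 39 matrix genes (points, by class), with the median of the class as a bar; ascending colon at left and descending colon at right. Nearly all points lie below 0 in the 3 ascending cages and in descending cage A, while 31 of 39 lie above 0 in descending cage B.

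The difference of the genotype effects between the regions was itself tested, as an interaction term fitted to the 30 libraries with limma. It called 0 of 38 members and 0 of 12353 genes (0%), and at an unadjusted p under 0.05 there were 1 member and 198 genes (1.6%), with 1.11% of genes below 0. That member was Lama5, with an ascending minus descending difference of the genotype effects of -0.93 ± 0.34 (adjusted p = 1.00 in limma). The median over the members was -0.22, and 32 of 38 members lay below 0, against 52.5% of all genes. The median was -0.36 without descending control A1, -0.12 without ascending control A2, -0.11 without descending control C1 and -0.07 without descending KO B1.

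Between the regions, Col1a1, Col4a1, Col4a2, Lama5, Lamb2 and Timp3 were lower and Lamb3 was higher in the ascending than in the descending colon of KO mice. These 7 genes passed under each alternative tried, of which a filter of 2 FPKM removed most of the other called members. The comparison of 8 ascending with 8 descending KO libraries called 22 of 37 members tested (Col4a6 and Col12a1 were below the filter), against 5368 of 12203 genes (44%). At an unadjusted p under 0.05 in limma there were 24 members, against 51.8% of genes, and 30 members lay below 0, against 65.8%. Of the 22, 3 were higher and 19 lower in the ascending colon, against 14.3% of genes higher and 29.7% lower. All 5 fibrillar genes, 8 of 14 basement membrane genes and 9 of 18 other matrix genes were called, while Col4a5 did not pass (adjusted p = 0.69 in limma). The median over the members was -0.56, beside -0.16 over all genes. Scaling moved that background: the median of all genes was -0.03 after median-of-ratios scaling and -0.04 after quantile normalization, 3 members were then higher and 15 lower, or 4 higher and 13 lower, and higher calls made up 2325 of 4608 or 2080 of 4382 called genes, beside 1748 of 5368 without rescaling. Col1a2, Col3a1, Col5a1 and Col6a3 did not pass with either scaling, nor Fbln1 and Mmp2 after quantile normalization.

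Timp3 (ENSMUSG00000020044.13; GRCm38, chr10:86300372-86349506) differed most. It had 0.50, 1.29 and 1.95 FPKM in ascending KO libraries, against 5.52, 8.70 and 13.4 FPKM in descending KO libraries. The groups did not overlap, as for 7.27% of all genes that were wholly lower, and the log2 difference was -2.10 ± 0.19 (adjusted p = 1.8e-07 in limma). In controls Timp3 had 1.56, 2.69 and 6.32 FPKM in the ascending colon, against 5.43, 14.5 and 21.9 FPKM in the descending colon, with 6 of 7 ascending libraries below every descending one (-1.92 ± 0.27, adjusted p = 0.00012 in limma). By cage the ascending minus descending difference was -2.28, -1.75 and -2.15 in KO mice and -1.66, -2.01 and -2.05 in controls. Timp3 passed under each of the alternatives tried in controls and in KO libraries, including each library left out in turn.

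Lamb3 (chr1:193207699-193343878) was higher in the ascending colon in both genotypes. It had 43.6, 56.8 and 73.3 FPKM in ascending KO libraries, against 33.5, 38.7 and 41.8 FPKM in descending KO libraries, with no overlap, as for 5.62% of all genes that were wholly higher (0.58 ± 0.11, adjusted p = 0.00063 in limma). In controls it had 38.2, 47.9 and 61.4 FPKM in the ascending colon, against 28.8, 32.8 and 48.7 FPKM in the descending colon (0.44 ± 0.12, adjusted p = 0.011 in limma). Its laminin partner Lama3 had lower medians in the ascending colon, with 14.0, 20.5 and 38.97 FPKM in ascending KO libraries, against 13.1, 33.0 and 68.2 FPKM in descending KO libraries, a difference that missed the threshold. In controls Lama3 had 19.2, 21.9 and 28.6 FPKM in the ascending colon, against 16.5, 38.9 and 46.0 FPKM in the descending colon, where it passed (-0.56 ± 0.20, adjusted p = 0.044 in limma) but held in 4 of 14 fits with 1 library left out (adjusted p of 0.051 to 0.094 in the others). The median log2(FPKM + 1) of Lamb3 minus that of Lama3 was 1.38 in ascending and 0.25 in descending KO libraries, and 0.97 in ascending and -0.15 in descending controls. These ratios are a description and were not tested.

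Other laminin and basement membrane genes of KO mice were mostly lower in the ascending colon. Lama5 had 1.1, 1.70 and 3.47 FPKM in ascending KO libraries, against 3.11, 7.61 and 9.93 FPKM in descending KO libraries, with 6 of 8 ascending libraries below every descending one (-1.37 ± 0.18, adjusted p = 1.1e-05 in limma). Col4a2 had 0.21, 0.98 and 2.16 FPKM in ascending KO libraries, against 1.82, 3.10 and 6.55 FPKM in descending KO libraries (-1.06 ± 0.21), and Col4a1 0.61, 1.18 and 1.68 FPKM in ascending KO libraries, against 1.04, 3.33 and 8.36 FPKM in descending KO libraries (-0.99 ± 0.23). Their shared start region is shown above. Lamb2, a beta chain of vessel and muscle laminins, had 3.15, 4.80 and 7.44 FPKM in ascending KO libraries, against 4.35, 8.99 and 13.5 FPKM in descending KO libraries (-0.69 ± 0.19), Nid1 differed by -0.67 ± 0.19, and Lama4, the alpha chain of vessel and muscle laminins, by -0.53 ± 0.12. Lamb1, a beta chain of widely made laminins, was higher (0.37 ± 0.13). In controls Lama5 had 2.34, 4.08 and 4.93 FPKM in the ascending colon, against 2.47, 4.30 and 9.29 FPKM in the descending colon, and did not pass.

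Among the fibrillar genes Col1a1 was lower in the ascending colon of KO mice, with 0.52, 3.28 and 6.33 FPKM in the ascending colon, against 3.26, 7.59 and 15.1 FPKM in the descending colon (-1.10 ± 0.28, adjusted p = 0.0053 in limma). Col3a1 differed by -0.83 ± 0.30, Col1a2 by -0.67 ± 0.25, Col5a2 by -0.58 ± 0.17 and Col5a1 by -0.51 ± 0.17. The calls of Col1a2, Col3a1 and Col5a1 were lost with either scaling and without cage A, B or C, and that of Col5a2 without cage A. In controls 0 of the 5 passed; Col1a1 had 2.34, 9.82 and 16.2 FPKM in the ascending colon, against 3.67, 11.7 and 29.4 FPKM in the descending colon (-0.50 ± 0.35). Col5a1 had 1.01, 2.1 and 3.84 FPKM in ascending controls, against 1.4, 2.94 and 6.04 FPKM in descending controls (-0.38 ± 0.22), and Col5a2 0.81, 1.75 and 2.72 FPKM in ascending controls, against 0.79, 1.51 and 5.83 FPKM in descending controls (-0.26 ± 0.25).

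Of the other matrix genes, Postn (periostin, a matricellular protein that binds collagen) was lower in the ascending colon of KO mice, at 0.16, 0.24 and 0.97 FPKM, against 0.55, 1.33 and 3.5 FPKM in descending KO libraries (-0.88 ± 0.22). Eln had 0, 0.28 and 0.86 FPKM in ascending KO libraries, against 0.56, 1.27 and 2.05 FPKM in descending KO libraries (-0.70 ± 0.14, adjusted p = 0.00082 in limma), with 6 of 8 ascending libraries below every descending one. Fbln1, Mmp2 (a gelatinase), Bgn, Lum (lumican, a proteoglycan of fibrils) and Col6a3 were lower by -0.65, -0.61, -0.61, -0.56 and -0.47 in log2 difference. Fbn1, the fibrillin of microfibrils, was higher: it had 1.23, 2.39 and 3.20 FPKM in ascending KO libraries, against 0.49, 1.15 and 2.84 FPKM in descending KO libraries (0.50 ± 0.16). Sparc, Fn1, Dcn, Timp2, Igfbp7, Fbln2 (fibulin 2), Col6a1, Col6a2 and Col14a1 (a collagen on the surface of fibrils) did not pass.

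In controls 7 of 39 members were called, against 4744 of 12515 genes (37.9%), and 11 were at an unadjusted p under 0.05 in limma, against 47.3%. Of the 7, 2 were higher and 5 lower in the ascending colon, against 12.8% of genes higher and 25.1% lower, and 24 of 39 members lay below 0, against 65.3% of genes. The higher ones were Lamb3 and Fbn1 (0.64 ± 0.18), and the lower ones Timp3, Lama3, Postn (-0.98 ± 0.31), Lamb2 (-0.54 ± 0.16) and Lama4 (-0.42 ± 0.15). Fbn1 had 2.31, 3.38 and 5.08 FPKM in ascending controls, against 0.74, 2.0 and 3.08 FPKM in descending controls. Postn had 0.19, 0.70 and 2.28 FPKM in ascending controls, against 0.71, 3.13 and 5.03 FPKM in descending controls. For both genes the ranges overlapped in part. Lamb2 had 4.53, 6.13 and 7.34 FPKM in ascending controls, against 6.14, 8.34 and 14.5 FPKM in descending controls, and Lama4 0.40, 0.75 and 1.32 FPKM in ascending controls, against 0.67, 1.24 and 2.12 FPKM in descending controls.

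Scaling moved the values in controls as well. The median over the members was -0.24, beside -0.14 over all genes, and it was -0.09 after median-of-ratios scaling, where the median of all genes was -0.01, and -0.14 after quantile normalization, where that of all genes was -0.05. The calls were then 4 higher and 2 lower, or 4 higher and 3 lower, and higher calls made up 2141 of 4024 or 1940 of 4202 called genes, beside 1598 of 4744 without rescaling. The basement membrane median was near 0 (-0.03) and changed sign with median-of-ratios scaling (0.04). No control member had ranges that did not overlap between the regions, against 10.7% of all genes.

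The called members shared by both genotypes in the same direction were 6 of the 22 called in KO libraries and 6 of the 7 called in controls: Fbn1, Lama4, Lamb2, Lamb3, Postn and Timp3. Lama3 was called in controls alone and 16 members in KO libraries alone, but the difference between the genotypes is what the interaction tests, and it called 0 members. Of the 22 calls in KO libraries 17 held in each fit with 1 library left out; the exceptions were Col1a2 (7 of 16 fits), Col3a1 (8 of 16), Col5a1 (14 of 16), Col6a3 (6 of 16) and Lamb1 (8 of 16), whose adjusted p lay between 0.051 and 0.088 where they were lost. Under all of the 13 other settings 7 of the 22 held, the genes named first above for KO mice. Of the rest, all but Col1a2 and Col3a1 fell below the filter of 2 FPKM in the setting that used it and were not tested there. Eln and Lama4 were lost in that setting alone. Of the 7 in controls 4 held in each fit with 1 library left out (Fbn1, Lamb2, Lamb3 and Timp3). Postn held in 10 of 14 such fits (adjusted p of 0.051 to 0.053 in limma in the others) and Lama4 in 7 of 14 (0.063 to 0.090). Under all of the 14 other settings 1 of the 7 held, Timp3. With median-of-ratios scaling Lama3, Lama4 and Lamb2 did not pass, and after quantile normalization Lama3 and Lamb2 did not. The median over the members in controls was -0.08 without ascending control A1, -0.13 without ascending control B3 or without descending control C2, -0.14 without descending control A1, and -0.36 without descending control C1.

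**Figure D5:**
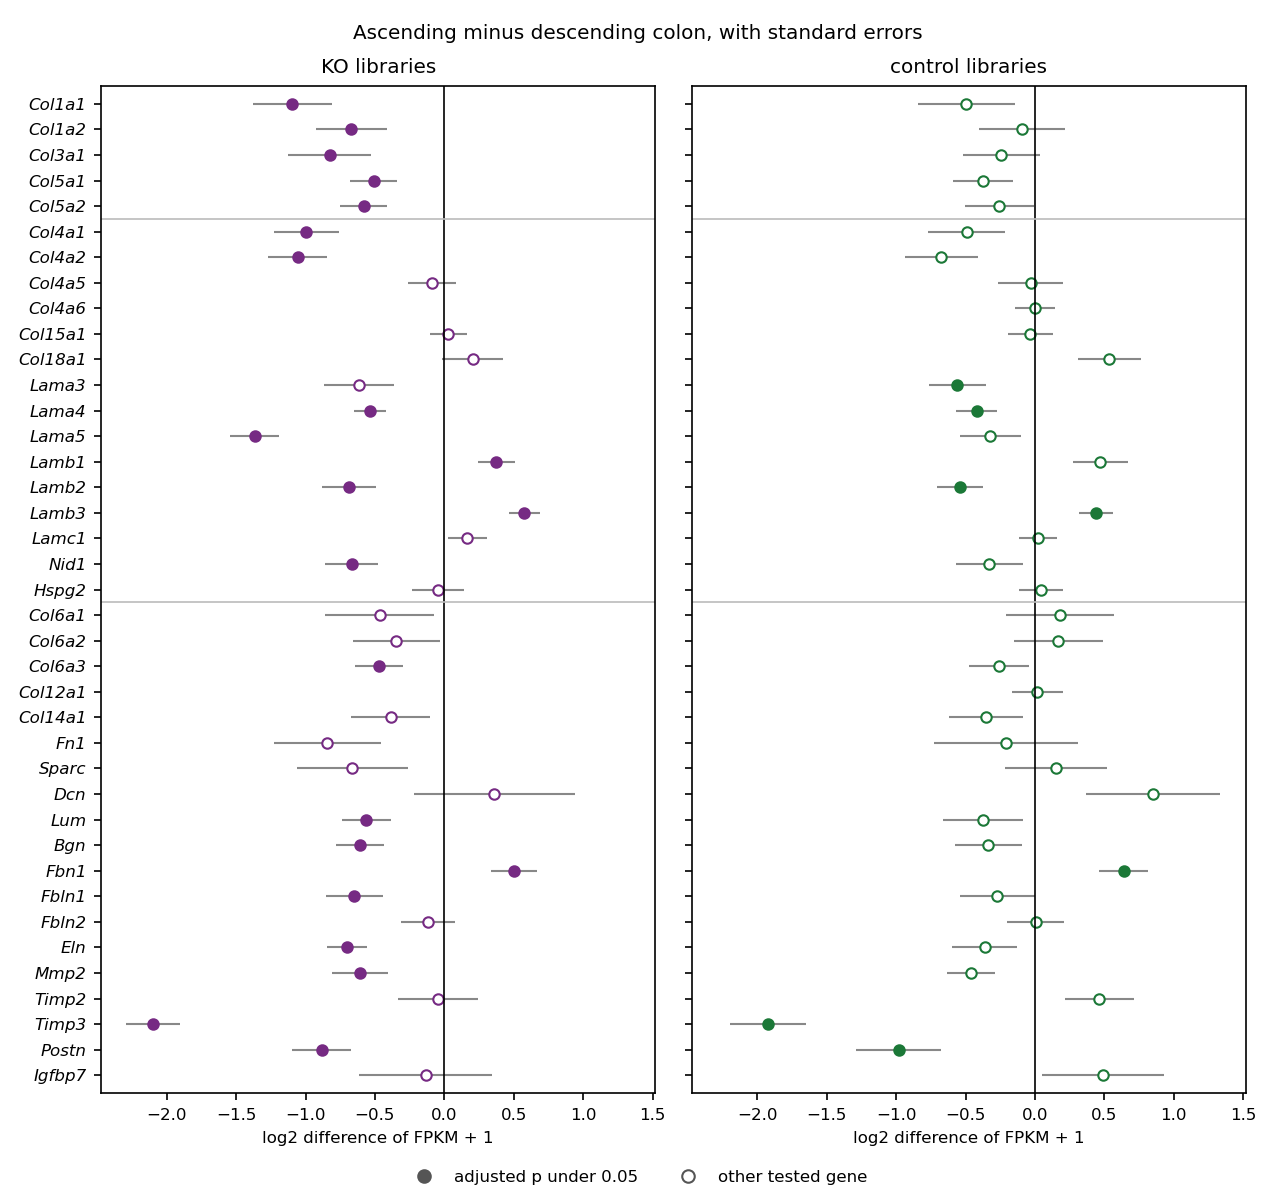
Ascending minus descending difference of log2(FPKM + 1) for each matrix gene (points, with bars of 1 standard error from the limma fit) in KO libraries at left and controls at right; filled points passed an adjusted p of 0.05, and grey lines divide the classes as in the genotype plot. Timp3 lies near -2 in both panels, Lamb3 and Fbn1 are filled right of 0 in both, and the fibrillar genes are filled in KO libraries.

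Smooth muscle markers moved with the region too. In KO libraries 12 of 14 tested were called, against 44% of all genes, 11 of them lower in the ascending colon and 1 higher (Mylk, a myosin kinase, at 0.81 ± 0.13), with a median of -1.40, and their sum was 38.2 to 90.8 FPKM in the ascending colon, against 60.7 to 341 FPKM in the descending colon. In controls 3 of 14 were called, a share below the 37.9% of all genes, 2 of them lower and 1 higher (Mylk, 0.70 ± 0.21), with a median of -1.30, and the sum was 46.7 to 506 FPKM in the ascending colon, against 51.3 to 529 FPKM in the descending colon. The fibroblast markers outside the matrix had medians of -0.10 in KO libraries (2 of 13 called) and -0.20 in controls (4 of 16 called), both counts below the share of all genes. Their part in the regional differences of the matrix genes was not tested.

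Chains of a shared trimer differed in how closely they kept to each other across libraries. The median log2(FPKM + 1) of Col1a1 minus that of Col1a2 was 0.22 in ascending KO, 0.43 in ascending control, 0.68 in descending KO and 0.80 in descending control libraries, and in each of these groups the SD of the difference was below that of either gene. The same held for Col6a1 minus Col6a2, with medians of 0.99, 1.07, 1.00 and 1.15 in the same order of groups. For Col4a1 minus Col4a2 the medians were 0.00, 0.29, 0.17 and 0.16. The SD of that difference was 0.29 in ascending KO libraries, above the SD of 0.26 of Col4a1 itself, but 0.10 in ascending controls, where Col4a1 had an SD of 0.59. Col6a2 minus Col6a3 had SDs of 0.42, 0.24, 0.57 and 0.64, which were above that of Col6a3 (0.20, 0.41, 0.46 and 0.55) in all groups but the ascending controls, and Col4a5 minus Col4a6 had an SD of 0.34 in ascending controls, above the 0.28 of Col4a6. These are descriptions, and the chains share libraries.

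The other genes of the matrix pathway, from lists outside the 39, were lower on median in ascending KO libraries as well, with 0 called in any list. The median log2 difference, KO minus control, was -0.51 over 4 other collagen genes tested of 22 listed, -0.39 over 2 other fibrillar collagen genes of 6, -0.32 over 18 elastic fibre and small proteoglycan genes of 34, -0.31 over 11 matrix proteases and inhibitors of 29, -0.30 over 7 other basement membrane genes of 16, -0.23 over 19 genes of the TGF-beta pathway of 25, -0.18 over 23 genes of collagen processing and crosslinking of 36 and -0.06 over 24 matrix receptors of 29. In the descending colon 0 were called as well, and the medians ran from -0.24 (elastic fibre and small proteoglycan genes) to -0.11 (other collagens). Between the regions, 6 of 17 elastic fibre and proteoglycan genes were called in KO libraries, 1 higher and 5 lower in the ascending colon, and 3 of 21 in controls. Thbs4, a thrombospondin of muscle and tendon matrix, had 2.94, 6.26 and 19.1 FPKM in ascending KO libraries, against 109, 170 and 259 FPKM in descending KO libraries, with no overlap (-4.57 ± 0.28, adjusted p = 1.22e-09 in limma). Of the matrix receptors 8 of 24 were called in KO libraries (5 higher and 3 lower) and 12 of 26 in controls (6 higher and 6 lower). Itga2, the alpha subunit of a collagen-binding integrin, had 15.1, 23.2 and 35.1 FPKM in ascending controls, against 4.88, 6.41 and 14.1 FPKM in descending controls (1.66 ± 0.14, adjusted p = 1.42e-06 in limma). Of collagen processing genes 6 of 22 were called in KO libraries (3 higher and 3 lower) and 4 of 23 in controls. In KO libraries and in controls, 6 of 13 and 6 of 16 proteases and inhibitors, 6 of 19 and 5 of 21 TGF-beta genes, 4 of 7 and 3 of 6 other basement membrane genes, 2 of 4 and 1 of 3 other collagens, and 0 of 1 and 0 of 3 other fibrillar collagens were called, beside 44 and 37.9% of all genes.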

How the data were processed

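The deposited table holds FPKM per gene for 30 libraries of mouse colon, without counts; per the labels, each library was made from 1 ug of total RNA with ribosomal RNA removed and read as single reads of 50 nt. Per the submitters' processing notes, the authors used bcl2fastq 2.17, STAR and DESeq2 with the build GRCm38/mm10 before they deposited the FPKM; no source used here gives the counter, the annotation release, the gene lengths or the use of strand. Without strand, reads from a stretch that 2 genes share cannot be told apart, which for Col4a1 and Col4a2 is the 22 bp of their overlap. Values are rounded to 2 decimals, which limits the precision of low genes, and the fold of a low gene is understated on the log2(FPKM + 1) scale.

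Groups came from the titles. The log2(FPKM + 1) values were fitted with limma 3.58.1 in R 4.3.3 (eBayes with a trend, cage as a covariate) for each comparison, on genes whose FPKM averaged 0.5 or more across its libraries; tests were two-sided, with Benjamini-Hochberg adjustment over all genes kept and a threshold of 0.05. No count test was used, since depth was known only as an estimate from the steps between low FPKM values. The scripts were tested on simulated data. Python 3.11.15 with pandas 2.3.3 and numpy 2.4.6 gave the descriptions, GENCODE M21 (GRCm38) the gene positions and RefSeq (GRCm38.p6) the promoter windows.

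The members, the gene lists and the tests were chosen with earlier results of these data known. Values are printed for the 3 members of each class with the smallest unadjusted p in each comparison, the highest and lowest member of each class and the chains of a shared trimer. From the other lists they are printed for at most 2 genes a comparison. Mylk, C3, Cd81, Vim, Igfbp7, Fbln1 and other genes named for a call, a count or a sum were named after their values were seen, to complete the account. Libraries were not paired by number in the main fits, since the labels do not say whether libraries of the same number share an animal. Deviations from group means of same-numbered ascending and descending KO libraries correlated at -0.10 (B1) to 0.40 (C1). Such values cannot decide whether an animal was shared, and the p-values of the main fits take no account of it. Alternatives were another pseudocount (0.1), filter (none or 2 FPKM), scaling, moderation, library weights, covariates or pooled fit, a replicate block, and leaving out libraries or cages.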

Additional observations from a re-analysis of the deposited data

Results flagged for a closer look

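Among the 156 groups of values (39 members in 4 groups of libraries), 3 had a highest library set apart from the others by Dixon's criterion, which chance alone meets in about 1 of 20 groups. Nid1 was at 1.45 FPKM in ascending KO A2, against a group median of 0.45 FPKM. Igfbp7 was at 23.73 FPKM in ascending KO C3, against a group median of 6.89 FPKM, and the summed fibroblast markers were highest of their group in that library too, at 536 FPKM. Bgn was at 4.21 FPKM in descending KO B1, against a group median of 1.42 FPKM, and the summed smooth muscle markers were highest of their group in that library, at 341 FPKM; the part of these cells in either value was not tested.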

How the results depend on the processing

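Of the values for single members under the alternatives, 1889 kept direction and side of the threshold, 120 kept direction and lost the call, 19 gained it and 5 changed sign: Lama3 in the ascending genotype comparison (0.054 without cage C), Col15a1 (0.0045), Col4a2 (0.048) and Col1a2 (0.034) in the descending genotype comparison without cage A, and Col5a2 between regions in controls (0.065 without cage A). The ascending genotype comparison called 12 members with array quality weights, 4 without cage B and 0 to 3 with 1 library left out (3 without KO B1). The regional comparison in KO libraries called 9 with a filter of 2 FPKM, under which 19 members were tested, 11 without cage C and 18 to 22 with 1 library left out. In controls it called 13 with array quality weights, 4 without cage B, 3 without cage C and 4 to 9 with 1 library left out (4 without descending B2, descending B3 or ascending C2). With the library number as a replicate block, the control comparison called 4 and the KO comparison 23, and 0 were called in the 3 genotype tests; the numbers share no stated animal, and not every library correlated best with its own number. Tests of cages called 2 members in the ascending colon with array quality weights and 0 to 1 with 1 library left out, 0 to 1 in the descending colon, and the ascending test of genotype by cage 0 to 1. For the regional and cage counts in this paragraph, the shares of all genes called under the same settings are not given. A changed count is therefore not read as particular to the members. Class medians moved beyond their spread for other matrix genes in the ascending genotype comparison with a pseudocount of 0.1 (-0.825), and for basement membrane genes between regions, in KO libraries with a filter of 2 FPKM (-0.65) and in controls without cage B (-0.41). Fewer libraries or members entered the fits with cages left out or a stricter filter; for the other settings the cause was not tested. The shallow ascending KO libraries of cage A limit what can be seen of members under 1 FPKM.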

Other observations

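Of the lymphocyte markers, 4 of 6 tested were higher in the ascending than in the descending colon of KO mice and 4 of 7 in controls, against 14.3 and 12.8% of all genes called higher. Cd8a, a coreceptor of cytotoxic T cells, had 2.26, 3.80 and 5.65 FPKM in ascending controls (lowest, median and highest library), against 0, 0.20 and 0.22 FPKM in descending controls, with no overlap (log2 difference 2.0 ± 0.16, adjusted p = 9.96e-07 in limma). Endothelial markers were lower in the ascending colon for 4 of 6 tested in KO mice and 3 of 9 in controls, against 29.7 and 25.1% of genes called lower. Of the adipocyte and mesothelium markers, 1 of 7 in KO mice and 1 of 9 in controls passed. In KO mice it was Cidec, a lipid droplet protein, with 7.75, 13.7 and 23.3 FPKM in the ascending colon, against 0.52, 0.75 and 1.16 FPKM in the descending colon (3.07 ± 0.15, adjusted p = 8.28e-11 in limma). Of the macrophage markers 3 of 9 passed in KO mice (1 higher and 2 lower) and 1 of 11 in controls, of the neuron and glia markers 1 of 5 and 0 of 6, and of the epithelial markers 6 of 15 and 3 of 15. These counts, and those of the adipocyte and mesothelium markers, were below the 44% of all genes called in KO mice and the 37.9% called in controls.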
